A study of Mus musculus with 2 samples.

Results

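The enzymes described here are 9 genes of the tricarboxylic acid cycle and its entry reaction: Cs, Idh1, Idh2, Idh3a, Idh3b, Idh3g, Ogdh, Mdh2 and Pcx. They were chosen by name, as every probe set whose annotation holds exactly 1 symbol from that list, which gave 25 of the 34958 probe sets with 1 symbol and 9 of 18194 genes. Of the 25, 21 are ordinary gene probe sets, and 4 are control probe sets that the array maker placed along the Pcx transcript. RNA came from skeletal muscle of 3-month-old male mice, either wild-type or null for Jhdm2a, a histone H3 lysine 9 demethylase now named Kdm3a. Each genotype was measured on 1 Affymetrix 430 2 array, which carried RNA combined from 3 mice. Both groups share a background of 129 embryonic stem cells crossed back to C57BL/6 over 4 generations. With 1 array per genotype there is no replicate check and no test was possible; every difference below describes these 2 arrays only, and their number sets the precision. The labels name no tissue restriction of the null allele and no particular muscle, and pooling hides differences between mice. In RNA of a tissue, fewer cells of a type and less RNA per cell cannot be told apart.

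The tricarboxylic acid cycle burns acetyl groups inside mitochondria and passes their electrons to the respiratory chain, and muscle fibres, heart and brown fat are rich in it. Citrate synthase starts the cycle, isocitrate dehydrogenase and the oxoglutarate dehydrogenase complex release carbon dioxide and reduce NAD, and malate dehydrogenase regenerates oxaloacetate. Pyruvate carboxylase, encoded by Pcx, refills the cycle by making oxaloacetate from pyruvate. It is abundant in liver and in white and brown fat, where it serves glucose and fatty acid synthesis. Some steps have a cytosolic counterpart, such as the NADP-linked Idh1, which makes NADPH outside mitochondria.

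Kdm3a itself, seen by 1 probe set, had a signal of 406 in the pool labelled wild-type and of 488 in the pool labelled null. Whether that probe set lies inside the disrupted stretch is not known here, so it does not check the labels, and directions rest on them throughout. Signals are given below in that order, wild-type-labelled first. The 13 skeletal muscle fibre markers, among them the actin Acta1 and the creatine kinase Ckm, were measured in full. Their mean log2 ratios, null-labelled over wild-type-labelled, lay between 0.10 and 0.26 with a median of 0.19, which was 0.08 after loess, when Tnnt3 fell below 0. A signal counted as measured when it lay above a floor of 182 on both arrays, and 20 of the 21 gene probe sets did.

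Most of the mitochondrial enzymes read nearly the same in both pools, and 3 of the 9 genes read lower on the null-labelled array: Pcx, Idh1 and, through 1 of its 3 probe sets, Idh3b. The median log2 ratio over the 9 genes was -0.07, beside 0.04 for all 9696 measured genes. At 1.5-fold 3 of 9 genes were lower, against 6.34% of all measured genes, and 0 of 9 were higher, against 3.38%. The same 3 were at least 2-fold lower, against 2.37%. Counted by probe set, 5 of 20 were at least 1.5-fold lower, beside 6.73% of all measured probe sets with 1 symbol. The 15 others lay between -0.26 and 0.24. As a technical yardstick, log2 ratios of probe sets of the same gene differed with an SD of 0.29 over 3719 genes.

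**Figure D1:**
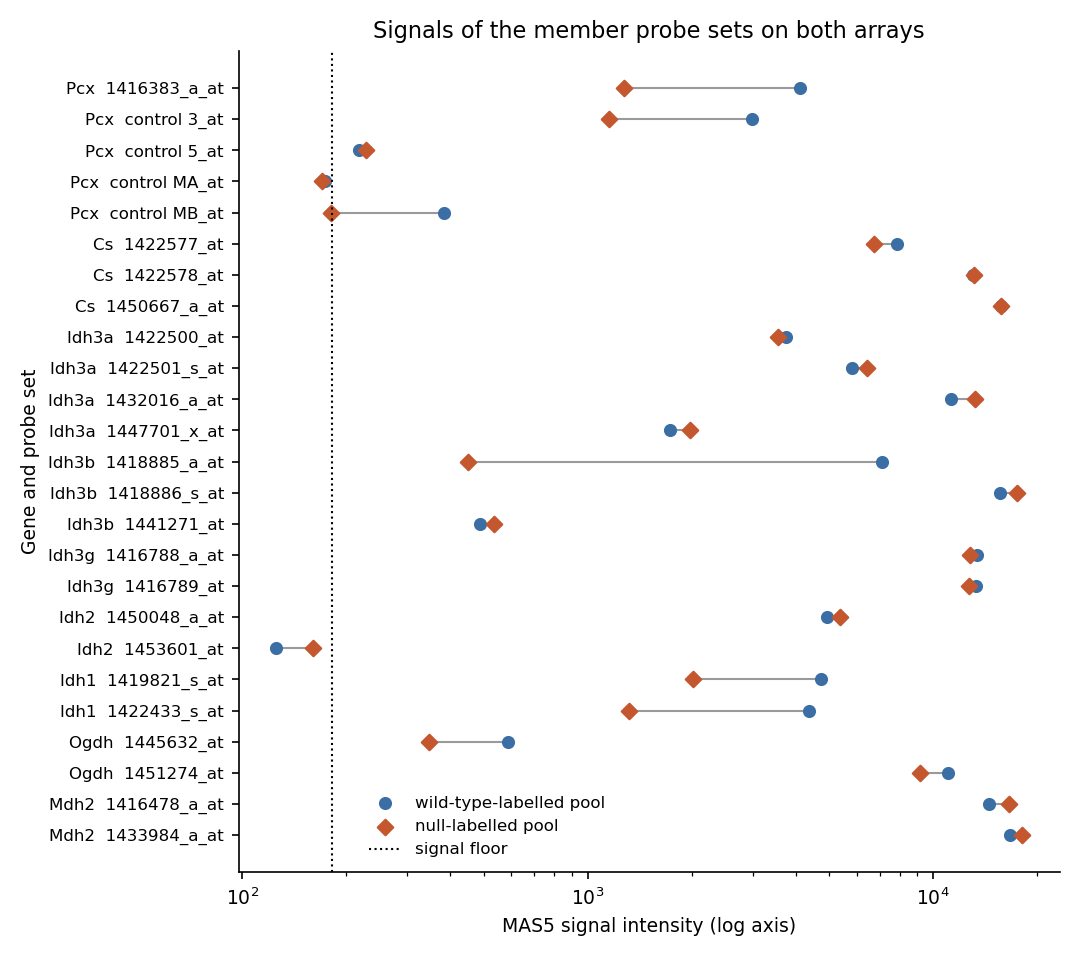
MAS5 signal intensity (horizontal log axis) of each of the 25 probe sets of the 9 genes on the wild-type-labelled (circles) and the null-labelled array (diamonds), with the signal floor of 182 as a dotted line. The pairs of Pcx 1416383_a_at, both Idh1 probe sets and Idh3b 1418885_a_at stand well apart, while most other pairs nearly coincide.

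Pcx had the lowest gene value of the 9. Its gene probe set 1416383_a_at read 4121 and 1274, which is 3.23-fold lower in the null-labelled pool, a log2 ratio of -1.69. Only 95 of 9696 measured genes had a lower mean log2 ratio. The array also carries 4 control probe sets for the same transcript, which give separate readings along it. The control nearest the 3′ end read 2978 and 1155, 2.58-fold lower on the null-labelled array. The control MB_at, from the middle of the transcript, read 383 and 181, the latter just under the floor, so it was at least 2.10-fold lower.

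The other controls of Pcx were dim on both arrays. MA_at read 174 and 170, under the floor on both, and gives no ratio. The 5′ control read 218 and 228, slightly above the floor, with a log2 ratio of 0.07. Thus the bright readings from the 3′ side were lower on the null-labelled array, and the difference was not seen where the signal lay near the floor. With the measured controls averaged in, the mean for Pcx was -0.997 in place of -1.69.

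Idh1, the cytosolic NADP-linked isocitrate dehydrogenase, was lower in both of its probe sets. Probe set 1422433_s_at read 4367 and 1315, 3.32-fold lower. Probe set 1419821_s_at read 4735 and 2021, 2.34-fold lower. The mean log2 ratio was -1.48 ± 0.36 (SD of 2 probe sets), and 120 of 9696 measured genes lay below it. Both carry the suffix _s_at, given to probe sets that may match transcripts of more than 1 gene, so no Idh1 probe set without that suffix was available as a check. The mitochondrial NADP-linked enzyme Idh2 went the other way by little, from 4920 to 5354 in 1450048_a_at, a log2 ratio of 0.12. Its second probe set, 1453601_at, read 125 and 160, under the floor on both arrays.

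Pcx and Idh1 are the genes at least 2-fold lower in each reading well above the floor, and for that reason the 250 bases before each of their RefSeq starts are shown, 5′ to 3′ on the gene's strand, on build GRCm38.p6. Capitals mark matches on either strand to CCAAT, to the E-box CACGTG or to the GC box GGGCGG. The table held 15 starts for 8 of the 9 genes. The Pcx windows are chr19:4510222-4510471 and chr19:4594069-4594318 on the plus strand, and the Idh1 windows are chr1:65186480-65186729 and chr1:65179143-65179392 on the minus strand.
Pcx, first start: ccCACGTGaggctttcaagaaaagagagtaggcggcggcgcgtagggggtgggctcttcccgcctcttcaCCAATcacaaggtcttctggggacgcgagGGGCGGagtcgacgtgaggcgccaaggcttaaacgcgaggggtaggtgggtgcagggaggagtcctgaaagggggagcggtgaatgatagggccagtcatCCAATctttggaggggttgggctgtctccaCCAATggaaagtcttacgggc
Pcx, second start: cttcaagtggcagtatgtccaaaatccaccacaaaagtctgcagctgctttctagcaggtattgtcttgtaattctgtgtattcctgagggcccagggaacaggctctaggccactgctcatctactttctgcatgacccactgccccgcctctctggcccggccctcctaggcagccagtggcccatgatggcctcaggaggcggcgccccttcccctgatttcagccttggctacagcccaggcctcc
Idh1, first start: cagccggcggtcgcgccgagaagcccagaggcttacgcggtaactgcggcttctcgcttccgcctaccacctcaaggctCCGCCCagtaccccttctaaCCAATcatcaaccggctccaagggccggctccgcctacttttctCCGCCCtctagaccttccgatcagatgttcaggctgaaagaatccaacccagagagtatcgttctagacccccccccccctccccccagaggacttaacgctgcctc
Idh1, second start: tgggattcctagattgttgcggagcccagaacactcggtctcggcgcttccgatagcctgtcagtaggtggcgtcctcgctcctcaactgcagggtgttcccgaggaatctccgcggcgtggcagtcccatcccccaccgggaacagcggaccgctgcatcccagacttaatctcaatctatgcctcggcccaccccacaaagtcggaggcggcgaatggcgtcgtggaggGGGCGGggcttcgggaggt

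The first Pcx window holds 3 CCAAT matches, 1 E-box and 1 GC box, and the second Pcx window holds none of the motifs searched. The first Idh1 window holds 1 CCAAT match and 2 GC boxes, and the second holds 1 GC box. None of these 4 windows holds TATAAA or the nuclear receptor motif AGGTCA on either strand. Among all 32851 windows of this length in the table, 33.9% hold CCAAT, 6.02% CACGTG, 32.7% GGGCGG, 12.4% TATAAA and 14.0% AGGTCA. Which start was used in these samples was not measured.

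The NAD-linked isocitrate dehydrogenase of mitochondria is built from the catalytic subunit encoded by Idh3a and the subunits encoded by Idh3b and Idh3g. Idh3a had 4 measured probe sets. Its brightest, 1432016_a_at, read 11224 and 13224, and 1422501_s_at read 5828 and 6446. Probe sets 1422500_at and 1447701_x_at read 3742 and 3548, and 1735 and 1978. The mean log2 ratio was 0.12 ± 0.14 (SD of 4 probe sets), with 3 probe sets above 0 and 1 below. Idh3g read 13372 and 12798 in 1416788_a_at, and 13330 and 12685 in 1416789_at, a mean of -0.07 ± 0.01 (SD of 2 probe sets). Neither subunit differed by as much as the spread between probe sets of a gene.

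Idh3b gave readings that cannot be joined into a single value. Probe set 1418885_a_at read 7127 and 450, 15.9-fold lower, and only 13 of 15403 measured probe sets had a lower ratio. Probe set 1418886_s_at read 15571 and 17462, a log2 ratio of 0.17. Its suffix is the one given to probe sets that may match transcripts of more than 1 gene. The dim 1441271_at read 488 and 536, a log2 ratio of 0.13. Averaged, the 3 probe sets give -1.23 ± 2.39 (SD of 3 probe sets), a mean that none of them resembles. Without 1418885_a_at the mean is 0.15, and without 1418886_s_at it is -1.93.

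The gap between the highest and lowest log2 ratio of Idh3b was 4.15, the largest of the 3719 genes with 2 or more measured probe sets. The median gap was 0.31, and 5 genes reached 2. The next gap belonged to Scd1, a fatty acid desaturase, at 2.70, where both probe sets were lower. The annotation gives the same RefSeq transcript as the source of 1418885_a_at and 1418886_s_at. In the RefSeq table Idh3b has 2 transcripts and overlaps the gene Nop56. Which transcripts each probe set matches was not analysed here. A count of lower members that leaves out 1418885_a_at is 2 of 9.

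**Figure D2:**
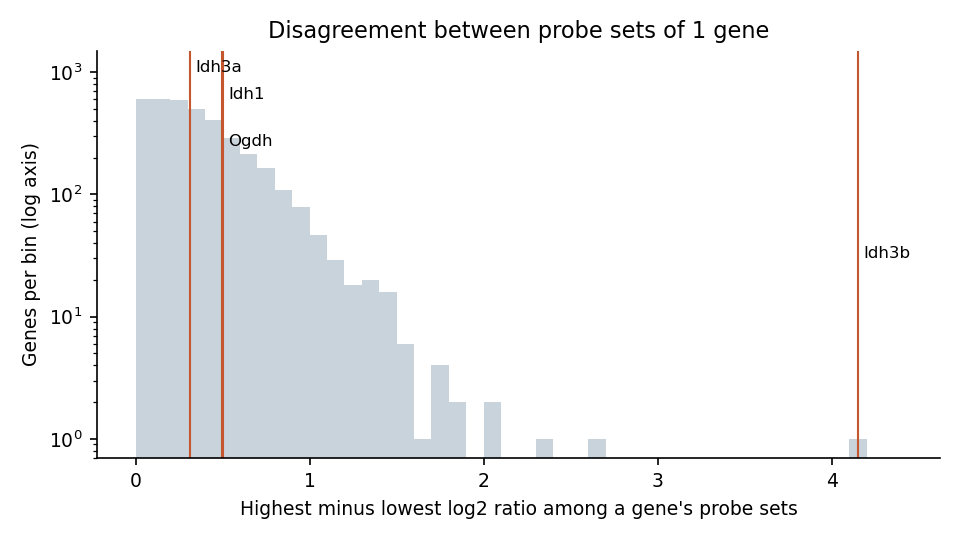
Histogram of the highest minus the lowest log2 ratio among the measured probe sets of each gene (vertical axis: genes per bin, log axis) for 3719 genes with 2 or more of them. Vertical lines mark Idh3a, Ogdh and Idh1 (whose lines almost coincide) and Idh3b, which stands alone at 4.15.

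Citrate synthase and malate dehydrogenase carry the steps at either end of the cycle, and the oxoglutarate dehydrogenase subunit carries a step between them. Cs, encoding citrate synthase, read 15748.2 and 15747.8 in 1450667_a_at, 13040.4 and 13144.7 in 1422578_at, and 7857 and 6729 in 1422577_at. Its mean log2 ratio was -0.07 ± 0.13 (SD of 3 probe sets), and the ratio of 1422578_at changed sign between scalings. Mdh2, the mitochondrial malate dehydrogenase, read 14505 and 16606 in 1416478_a_at and 16675 and 18114 in 1433984_a_at. Its mean was 0.16 ± 0.05 (SD of 2 probe sets), and 1433984_a_at also changed sign, reaching -0.003 at its lowest. These genes differed by less than the spread between probe sets.

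Ogdh, the subunit that decarboxylates oxoglutarate, was lower in both probe sets but short of 1.5-fold on average. The bright 1451274_at read 11013 and 9177, 1.20-fold lower, and the dim 1445632_at read 588 and 347, 1.70-fold lower. The mean log2 ratio was -0.51 ± 0.35 (SD of 2 probe sets). Its 2 probe sets therefore share a direction and disagree on the size. Dlst, the succinyltransferase of the same complex, had a mean of -0.48 ± 0.10 (SD of 2 probe sets). Dld, the dehydrogenase subunit it shares with other complexes, had 0.29 from 1 probe set.

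**Figure D3:**
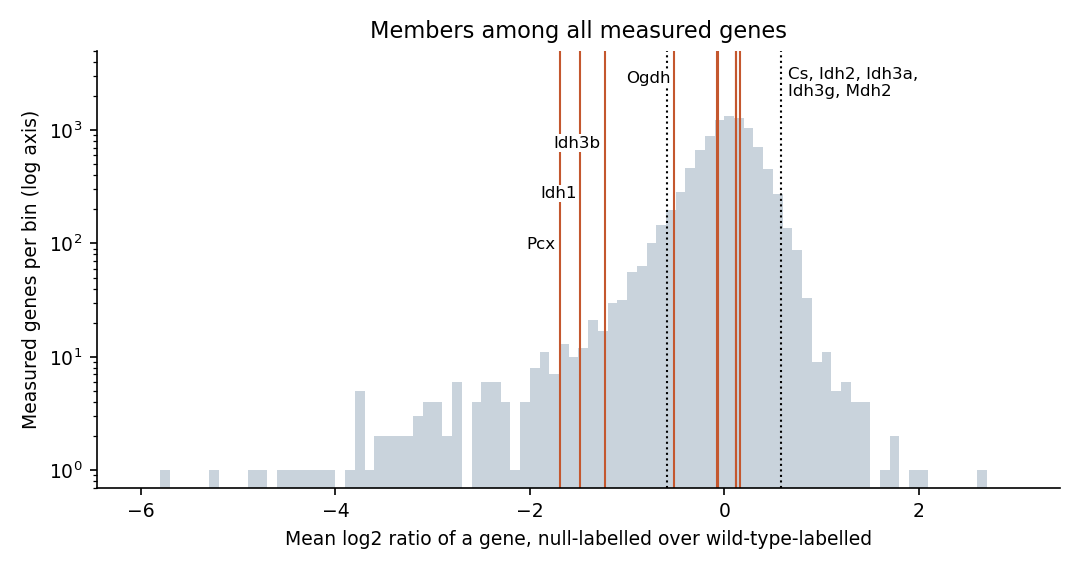
Distribution of the mean log2 ratio of 9696 measured genes (vertical axis: genes per bin, log axis), with the 9 genes as vertical lines and 1.5-fold as dotted lines. Pcx, Idh1 and Idh3b lie in the lower tail at -1.69, -1.48 and -1.23, Ogdh lies at -0.51, and the other 5 lie near 0.

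Another 12 cycle enzymes with a probe set of 1 symbol were followed, and all 12 were measured. Their median log2 ratio was -0.01, between -0.11 and 0.02 in the alternatives. Of the 12, 1 was at least 1.5-fold lower, beside 6.34% of all measured genes, and 0 were higher, beside 3.38%. That gene was Aco1, the cytosolic aconitase, which also binds RNA as an iron sensor. It read 9124 and 3661 in 1456728_x_at and 1055 and 467 in 1423644_at, a mean of -1.25 ± 0.10 (SD of 2 probe sets). Of the others Dlst was lowest and Dld highest, with the values above.

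Sorted by place in the cell, the isoforms differed. Of the cytosolic enzymes, Aco1 and Idh1 had -1.25 and -1.48, while Mdh1, the cytosolic malate dehydrogenase, had 0.13 ± 0.09 (SD of 3 probe sets). The 16 measured mitochondrial cycle enzymes other than Idh3b and Pcx ranged from -0.51 to 0.29 with a median of -0.01, and 14 of them lay within 0.3 of 0. None of the 16 reached 1.5-fold, beside 6.34% of all measured genes lower and 3.38% higher. The 2 outside 0.3 were Ogdh and Dlst, subunits of the same complex. This sorting was made after values were seen.

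**Figure D4:**
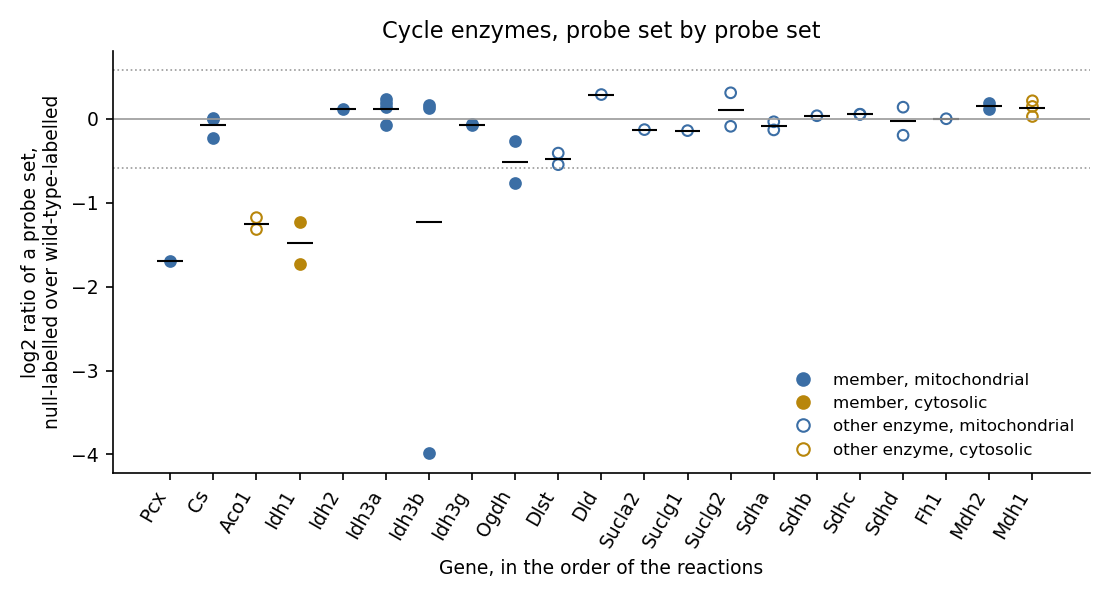
log2 ratio of each measured probe set (vertical axis, null-labelled over wild-type-labelled) for 21 cycle enzymes in reaction order, with the 9 genes of interest filled and the others open, mitochondrial enzymes in blue and cytosolic ones in gold, and gene means as bars. Pcx, Aco1, Idh1 and the single low probe set of Idh3b lie below the dotted 1.5-fold line, and so does the dim probe set of Ogdh at -0.76.

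The genes that feed or drain the cycle next to Pcx and Idh1 were more divided. Of 25 listed, 21 had a probe set with 1 symbol and 18 were measured, with a median of -0.11. Of the 18, 5 were at least 1.5-fold lower, beside 6.34% of all measured genes, and 2 were higher, beside 3.38%. Pck1, which turns oxaloacetate into phosphoenolpyruvate in the cytosol, had -4.54 from 1 probe set. Slc25a1, the carrier that exports citrate from mitochondria, had -3.70 from 1 probe set, reading 7091 and 545. Acly, which splits that citrate in the cytosol, had -3.23 ± 0.06 (SD of 3 probe sets). Pcca, a subunit of propionyl-CoA carboxylase, had -0.87, and Slc25a10, the dicarboxylate carrier, had -0.65.

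The 2 higher genes were the aspartate aminotransferases Got1, cytosolic, at 0.69 and Got2, mitochondrial, at 0.63 ± 0.47 (SD of 2 probe sets). Only 1 of them stayed past 1.5-fold after quantile normalization, median centring or loess. Got1, Got2 and Slc25a10 stand outside the naming rule and were chosen after their values were seen. The listed genes for the other entry of pyruvate did not share a direction. The pyruvate dehydrogenase subunit Pdhb had -0.32 ± 0.22 (SD of 2 probe sets), and Pdha1 had 0.31 ± 0.40 (SD of 2 probe sets). Dlat had 0.01 ± 0.31 (SD of 3 probe sets), and Mpc1 had 0.29 from 1 probe set.

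Pcx needs biotin as its bound cofactor, and the genes of the other biotin carboxylases also read below 0, though not all reached 1.5-fold. Of 9 genes of biotin enzymes and biotin handling, 7 were measured, with a median of -0.78. All 7 were below 0, beside 4300 of all 9696 measured genes, and 5 were at least 1.5-fold lower, beside 6.34%. Under all scalings the 7 stayed below 0. Acaca, the acetyl-CoA carboxylase of fatty acid synthesis, had -3.03, and Acacb, whose product restrains fatty acid oxidation in muscle, had -1.05. Pcca had -0.87 and Mccc1, of leucine breakdown, had -0.78 ± 0.06 (SD of 2 probe sets). The last of the 5 was Btd, which recycles biotin, at -0.66, named after its value was seen.

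Idh1 makes NADPH, and of 9 further NADPH-making dehydrogenases listed 8 were measured. Their median was -0.38. Of the 8, 3 were at least 1.5-fold lower, beside 6.34% of all measured genes, and 0 were higher, beside 3.38%. Pgd, a pentose phosphate enzyme, had -2.74 ± 0.28 (SD of 4 probe sets), and Aldh1l1, a folate enzyme, had -1.78. H6pd, of the endoplasmic reticulum, had -0.95. Nnt, the proton-driven transhydrogenase of mitochondria, was highest at 0.50 ± 0.32 (SD of 2 probe sets). The cytosolic malic enzyme Me1 had -0.41 ± 0.03 (SD of 2 probe sets).

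**Figure D5:**
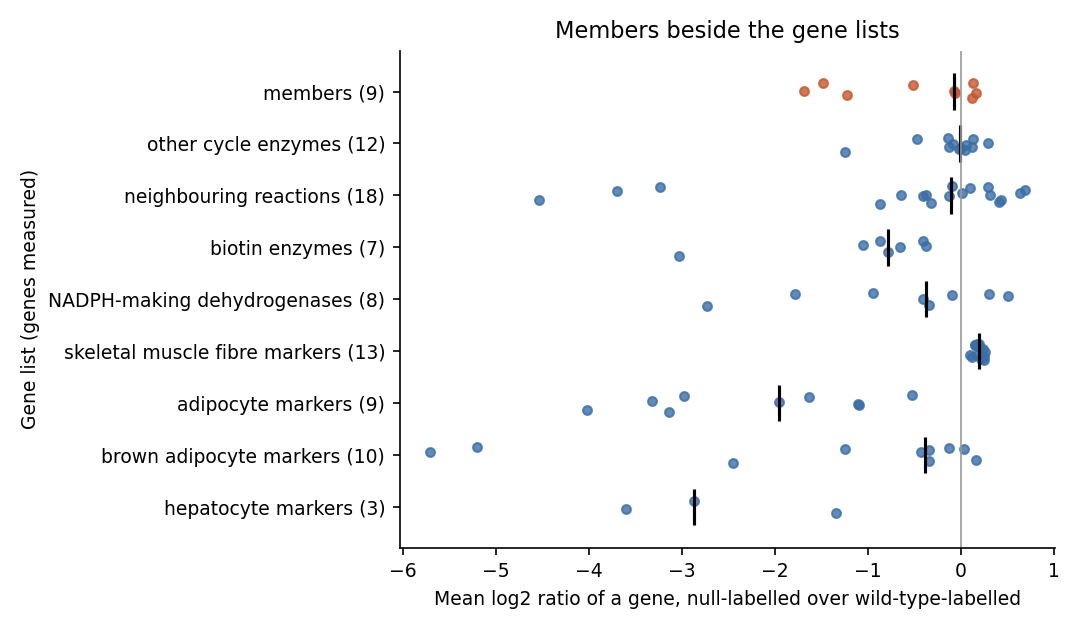
Mean log2 ratio of each measured gene (horizontal axis) in the 9 enzymes of interest and in 8 gene lists, 1 point per gene, with black bars at the medians and the number measured in parentheses. The 9 enzymes spread from -1.69 to 0.16, biotin enzymes all lie below 0, muscle fibre markers cluster just above 0, and adipocyte markers have a median of -1.96.

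Many markers of fat and liver were lower on the same array as Pcx and Idh1, which those tissues also express, and their part in the result was not tested. Of 13 adipocyte markers, 11 had a probe set with 1 symbol and none of the 11 was under the floor on both arrays. Their summed signal, with each gene read by its brightest probe set, was 78541 and 25440. All 9 measured ones were below 0, beside 4300 of all 9696 measured genes. Adipoq, the hormone adiponectin, read 11443 and 1145. The sums for 12 brown adipocyte markers were 73898 and 37509. Cox8b, at 20562 and 18805, and Cox7a1, at 13555 and 13825, made up most of the null-labelled sum. Of the 10 measured, 4 were at least 1.5-fold lower, beside 6.34% of all measured genes, and none higher, beside 3.38%. Their median log2 ratio was -0.39. It leaves out Elovl3 (2092 and 114), Otop1 (2689 and 87) and the brightest Dio2 probe set (958 and 177). Each of these was under the floor on the null-labelled array. Ucp1, the lowest, read 14885 and 283, while Cox8b, Cox7a1 and Ppargc1a, which muscle fibres also express, had log2 ratios of -0.13, 0.03 and 0.16, and that of Cox7a1 turned below 0 in the other scalings.

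Of 15 hepatocyte markers 13 had a probe set with 1 symbol, with sums of 22239 and 3556. Of the 13, only Alb, Hp and Cyp2e1 were measured on both arrays. All 3 were below 0, beside 4300 of all 9696 measured genes. Hp and Cyp2e1 had the largest readings in these sums, at 7243 and 598, and at 4643 and 1824. Alb, serum albumin, read 2635 and 361, while Apob, Fgb, Fgg and Tat were not above the floor on either array. The sums for the 13 muscle fibre markers were 250558 and 284048. Endothelial markers summed to 4226 and 3872, and fibroblast markers to 32326 and 36767. Sums for neutrophil markers were 650 and 8161, and for erythroid markers 593 and 1518, opposite in direction to Pcx and Idh1.

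By size of difference, the 5 measured genes closest to Pcx were Pdp2, Gpd2, Sowahc, Ctsz and Fmo1, whose mean log2 ratios lay within 0.031 of -1.69. Pdp2 is a phosphatase that activates pyruvate dehydrogenase, and Gpd2 is the mitochondrial glycerol phosphate dehydrogenase. The likeness is a single ratio from 2 arrays. Of the 5, Gpd2 had the third largest gap between probe sets of all genes, 2.38.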

How the data were processed

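Skeletal muscle RNA was hybridised to 2 arrays, 1 per genotype, each with RNA of 3 pooled mice. The authors deposited a linear signal intensity for each probe set, made with MAS5 per the submitters' processing notes, which name no version here. The deposited columns have equal 2% trimmed means of 500.0. The table used here carries signals alone, without calls of presence. Groups came from the source label, and 0 columns of other samples were present.

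Log2 ratios were taken on the deposited values with Python 3.11.15, numpy 2.4.6, pandas 2.3.3 and, for loess, statsmodels 0.14.6. The floor of 182 is the 60th percentile of signals over the 45037 non-control probe sets. A gene's value is the mean log2 ratio over its non-control probe sets above the floor on both arrays. A probe set above the floor on 1 array only, at 2 times the floor or more, was given a bound against the floor. Probe sets were named from the platform annotation: 34945 had 1 symbol, 932 several and 9160 none. No test was run, since 1 array per genotype leaves no residual degrees of freedom. Promoter windows came from RefSeq, GRCm38.p6.

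The genes, lists and rules were chosen with earlier results of these data known. The text names all 9 genes; other cycle enzymes past 1.5-fold, with the highest and lowest; up to 4 genes per further list by size of difference; and the 5 genes closest to Pcx. Dld, Mdh1, Pdhb, Pdha1, Dlat, Mpc1, Me1 and the marker genes named stand outside that rule or illustrate a list. Alternatives were quantile normalization, median centring, loess with a span of 0.3, no floor, a floor at the 75th percentile, an offset of 50, the brightest probe set, and leaving out _x_at and _s_at probe sets. Adding the Pcx controls and leaving out 1418885_a_at were chosen after seeing the data. The procedure was run on simulated data with known fold changes and independent noise. That run checks the code only, since it held no differences between pools of mice.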

Additional observations from a re-analysis of the deposited data

How the results depend on the processing

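Idh3b was the gene whose direction turned. Its mean log2 ratio of -1.23 was 0.15 with the floor at the 75th percentile, 0.17 from the brightest probe set and 0.15 without 1418885_a_at, since each of these settings removes that probe set; it was -1.93 without _x_at and _s_at probe sets. Pcx lay between -1.77 and -1.66 under quantile normalization, median centring, loess and an offset of 50. It has 1 gene probe set, so the floor, brightest and suffix settings could not change its value and gave -1.69 again. With its control probe sets added, Pcx was -0.997. Idh1 lay between -1.56 and -1.23, and could not be computed without _s_at probe sets. Ogdh lay between -0.58 and -0.26, and its higher end came from the bright probe set alone. The count of genes at least 1.5-fold lower was 2 or 3 in all 9 alternatives run, and that of genes at least 1.5-fold higher was 0 in all 8. The genes behind a count of 2 were not always the same. Without _x_at and _s_at probe sets, 8 genes were measured and the 2 lower ones were Pcx and Idh3b. In the other settings with a count of 2, they were Pcx and Idh1. The median over the 9 genes lay between -0.18 and 0.00 when rounded. Among the 20 measured probe sets, 18 kept 1 sign through quantile normalization, median centring, loess and an offset of 50; the 2 others belong to Cs and Mdh2. Dim probe sets of Idh2, Ogdh, Idh3b and the Pcx controls lie near the floor, where a ratio says least. No paired analysis was possible because each genotype has 1 array.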
